A study of Mus musculus with 18 samples.

Results

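Mouse cells on day 12 of reprogramming (D12) were compared gene by gene with induced pluripotent stem cells (riPSC), to ask how far the last sampled day of the course lay from the pluripotent end point. The series follows a chemical reprogramming platform, and the comparison took 4 of the 18 RNA sequencing libraries of the series, 2 for D12 and 2 for riPSC. It kept every gene whose FPKM reached 1 in 2 or more of the 18 libraries, which left 16439 of 55401 listed genes. FPKM counts fragments by the length of the transcript in kilobases and by the depth of the library. D12 cells had been mouse embryonic fibroblasts of strain 129XOG2, from E13.5 embryos and at passages 1 to 3, and were kept in a reprogramming medium whose agents the labels do not name. OG2 mice carry a green fluorescent reporter under regulatory sequence of Pou5f1. The riPSC carry the same strain label and the same embryonic day of fibroblast origin, E13.5. They grew on feeder cells in an N2 and B27 medium with LIF (1000 units/mL), the GSK3 inhibitor CHIR99021 (3 µM) and the MEK inhibitor PD0325901 (0.2 µM), so medium and feeders differed between the groups along with cell state. Day 10 of the course (D10) and the embryonic stem cell line R1 (mESC), the latter kept like riPSC, served as further references with 2 libraries each. The labels do not say that libraries of a group came from separate cultures, so the spread between them may be technical. The p-values rest on a spread pooled over the libraries of all 9 groups of the series, not of D12 and riPSC alone.

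Mouse pluripotent stem cells are held in a naive state by a network around Pou5f1, Sox2 and Nanog, fed by LIF, with Esrrb, Klf2, Tfcp2l1 and Zfp42 among its members. In chemical reprogramming, small molecules take the place of introduced factors, and mouse fibroblasts are known to pass through an intermediate that expresses genes of the extraembryonic endoderm, the lineage that lines the yolk sac and lays down its basement membrane. All values come from bulk RNA, in which fewer cells of a type and less RNA per cell cannot be told apart.

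Both labels were checked against marker levels. The summed FPKM of 7 pluripotency markers was 1409 and 1447 in the D12 libraries and 4787 and 5057 in riPSC, with all 7 detected at 1 FPKM or more in both groups. Summed markers of extraembryonic endoderm ran from 851 to 874 in D12 and from 8.503 to 9.48 in riPSC, those of epithelium from 777 to 789.9 and from 117 to 123. The summed level of 10 fibroblast markers, which would also report feeder cells, was 736 and 753 in D12 and 88.4 and 94.3 in riPSC. The 3 myeloid markers summed to at most 0.316 FPKM in D12, with C1qa at 0, and the 3 muscle markers to at most 0.499, with Myog and Actc1 at 0. In riPSC the myeloid sum was 1.22 and 1.73. From the value of 1 fragment in single-exon genes, depth came to about 16500000 and 17000000 read pairs in the D12 libraries and 19700000 and 18000000 in those of riPSC. Replicates differed at the median gene by 0.1004 log2 units in D12 and 0.1003 in riPSC. On days 0, 2 and 4, which enter the pooled spread, they differed by 0.280, 0.243 and 0.184. The mean correlation across genes was 0.775 between D12 and riPSC, 0.936 between D12 and D10 and 0.974 for riPSC with mESC. These coefficients describe genes, which are not independent, and carry no test.

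Of the 16439 genes tested, 6000 (36.5%) differed between D12 and riPSC, 2747 higher in D12 (16.7%) and 3253 lower (19.8%). A gene was called when its adjusted p in limma was under 0.05 and its difference at least 2-fold on the log2(FPKM + 1) scale, and "higher" and "lower" below refer to such calls of D12 against riPSC. Fold changes on this scale are given as log2 values ± standard error and understate the change of low genes. Against D10, 1757 genes (10.7%) were called, 988 (6.01%) that rose and 769 (4.68%) that fell by D12. Against mESC, 5897 (35.9%) were called, 2886 (17.6%) higher and 3011 (18.3%) lower. Counts of list members below are to be read against these shares. These 3 comparisons share the D12 libraries, so their values are set side by side only. Which direction held the majority depended on scaling. With transcripts of mitochondrial DNA left out, 3365 genes were higher and 2668 lower, with median-of-ratios scaling 3120 and 2601, and with the trend over transcript length removed 3089 and 2785. The median log2 difference of all genes moved from -0.06 to 0.06 when mitochondrial transcripts were left out, and the list results below are to be read against that shift.

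**Figure D1:**
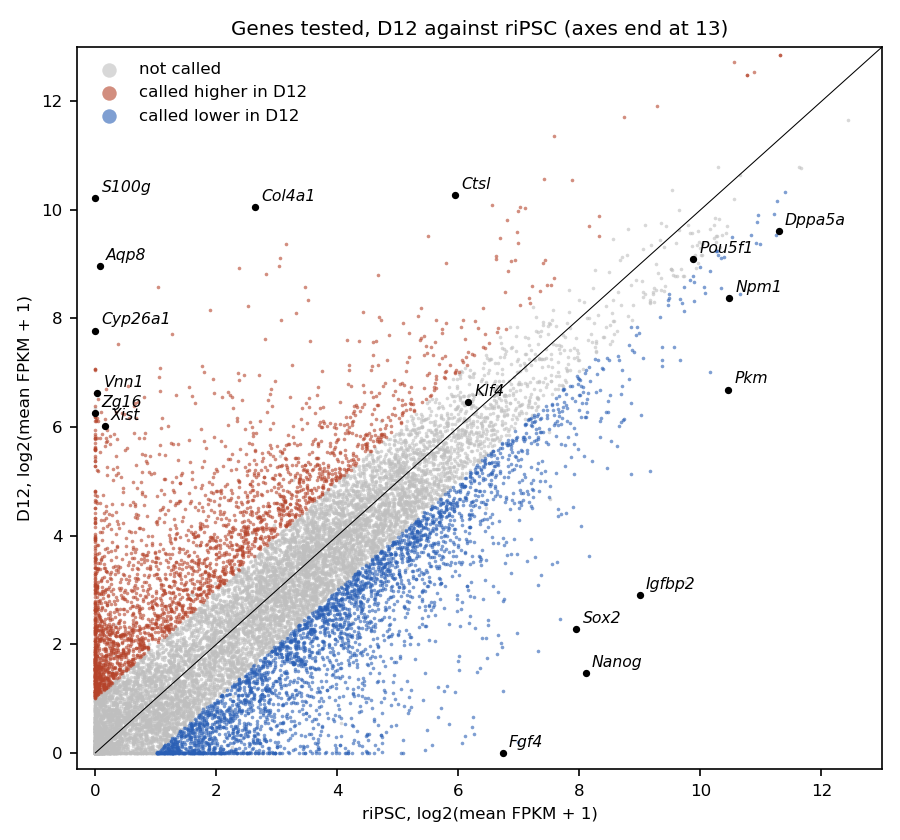
Each point is 1 of the genes tested, at log2(mean FPKM + 1) in riPSC (horizontal) and D12 (vertical); red and blue mark genes called higher and lower in D12, and the line marks equal levels. S100g, Aqp8 and Cyp26a1 lie on the upper left edge, near 0 in riPSC, while Nanog, Sox2 and Fgf4 lie at the lower right and Klf4 on the line; a few mitochondrial transcripts lie beyond the axes.

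Core pluripotency regulators ranged at D12 from genes close to the riPSC level, through genes expressed at a reduced level, to genes that were nearly silent. Of 13 tested, 11 were lower than in riPSC and none higher, with a median log2 difference of -1.66 against -0.06 for all genes. Pou5f1, which encodes OCT4, was at 528 and 558 FPKM in D12, 910.2 and 969.6 in riPSC and 121 and 128 in D10. It was not called against riPSC (log2 fold change -0.79 ± 0.09, limma adjusted p = 6.16e-06) and had risen from D10 (log2 fold change 2.11 ± 0.09, limma adjusted p = 4.43e-09). Dppa3, a maternal-effect gene of oocytes and naive cells, was at 31.3 and 28.7 in D12 and 23.3 and 23.7 in riPSC, a difference that passed the test but not the fold threshold (log2 fold change 0.34 ± 0.10, limma adjusted p = 0.0121). It stood at 0.278 and 0.536 in D10 and at 0.907 and 1.13 in mESC. The homeobox gene Nanog was at 1.76 and 1.76 in D12 and 273 and 275 in riPSC (log2 fold change -6.64 ± 0.09, limma adjusted p = 3.79e-14). It had risen from 0.1596 and 0.2801 on D10 (log2 fold change 1.18 ± 0.09, limma adjusted p = 8.49e-07), with D12 and riPSC libraries far apart. Sox2, the partner of OCT4 on DNA, was at 3.797 and 3.86 against 234 and 257 (log2 fold change -5.67 ± 0.19, limma adjusted p = 6.66e-11), and from D10, at 1.94 and 2.38, it was not called. Utf1, a chromatin factor bound to OCT4 targets, was listed at 0 and 0.291 in D12 and at 116 and 136 in riPSC. Lin28a, an RNA-binding repressor of let-7, was at 13.55 and 12.7 and 36.4 and 38.1 (log2 fold change -1.44 ± 0.09, limma adjusted p = 3.02e-08). Dppa5a and Tdgf1, the latter a co-receptor for Nodal, were expressed but lower: Dppa5a was at 776 and 784 against 2409 and 2611, and Tdgf1 at 35.6 and 35.1 against 567 and 582. All of these called genes had D12 and riPSC libraries that did not overlap, which adds little to a call at a 2-fold difference.

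Naive factors covered a similar range. Of 23 tested, 19 were lower and none higher, with a median of -2.55. The 4 without a call were Klf4, Klf5, Nr0b1 and Tbx3. Klf4, one of the classical reprogramming factors, was at 88.5 and 85.6 in D12 and 67.1 and 74.1 in riPSC (log2 fold change 0.30 ± 0.15, limma adjusted p = 0.106), and its D10 libraries were at 69.7 and 76.1. Nr0b1, an orphan receptor gene of the OCT4 network, was at 53.3 and 49.4 and 50.7 and 54.9 and had been at 15.6 and 14.6 on D10 (log2 fold change 1.70 ± 0.10, limma adjusted p = 8.33e-08). Esrrb, an orphan nuclear receptor downstream of GSK3 inhibition, was at 41.3 and 44.3 against 248.6 and 214 (log2 fold change -2.40 ± 0.12, limma adjusted p = 1.97e-09) and was not called against D10. Zfp42, the REX1 gene, was at 23.7 and 20.8 against 145 and 148 (log2 fold change -2.67 ± 0.13, limma adjusted p = 1.78e-09), up from 3.17 and 2.998 on D10. Klf2 rose from 2.64 and 2.13 to 10.6 and 12.6 and Tfcp2l1 from 10.4 and 10.9 to 24.6 and 24.3, and both stayed below riPSC, at 111 and 121 and 62.9 and 65.5. Nr5a2, a nuclear receptor that activates Pou5f1, rose from 0.0541 and 0.142 to 6.77 and 5.88 against 19.5 and 19.2 in riPSC. A further set was near 0 in D12: Fgf4 was listed at 0 in both libraries against 105 and 106, Prdm14, a repressor of the formative program, was at 0.199 and 0 against 14.02 and 15.2, and Tcl1, an AKT co-activator, at 0.4297 and 0.111 against 71.7 and 79.5. Against D10, 8 naive and 5 core genes had risen and 1 of each list had fallen, in the core list Utf1. No gene of either list was called higher than in riPSC.

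**Figure D2:**
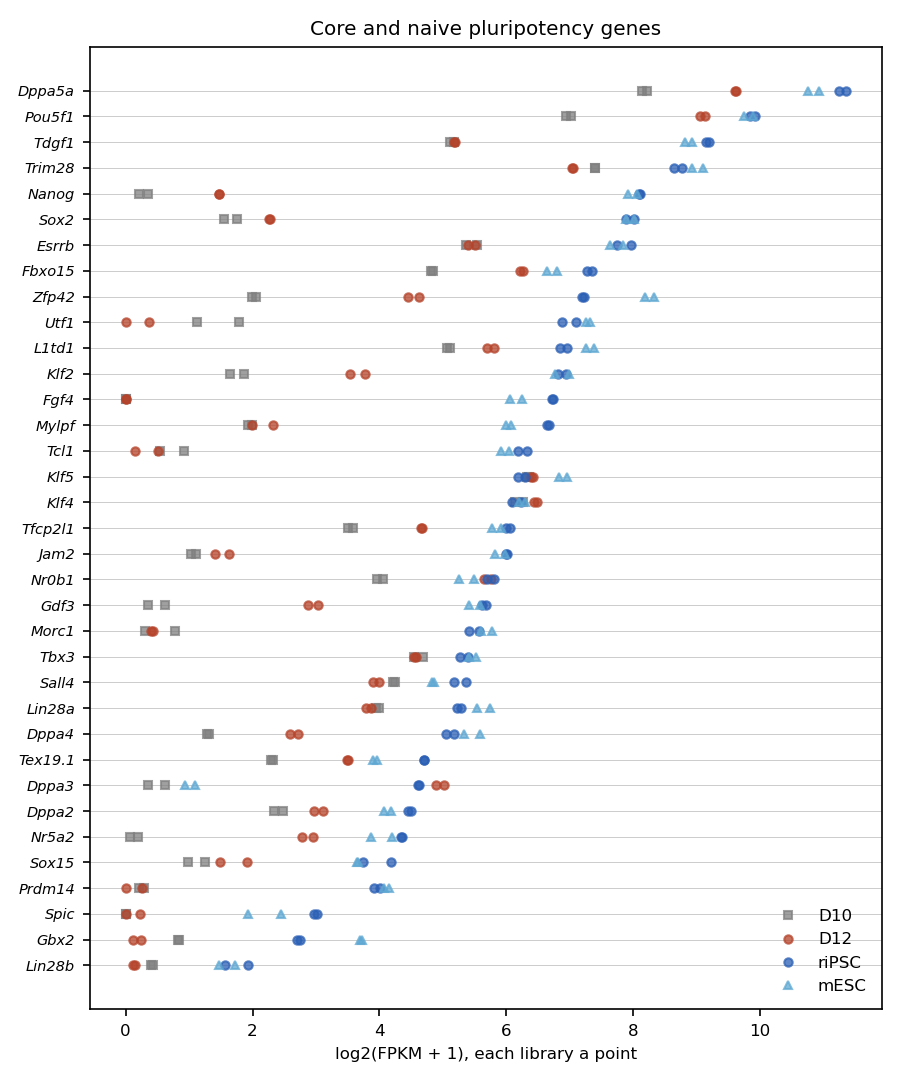
Points are single libraries of D10 (grey squares), D12 (red circles), riPSC (blue circles) and mESC (light blue triangles) for core and naive pluripotency genes, ordered by the riPSC level, on the log2(FPKM + 1) scale. Pou5f1, Klf4, Klf5, Nr0b1 and Dppa3 reach or near the riPSC points at D12, while Nanog, Sox2, Utf1, Fgf4 and Tcl1 stay to the far left.

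Signals that act on this network differed in a mixed way. In the LIF pathway 3 of 10 genes were higher and 3 lower: the receptor gene Lifr was at 30.8 and 32.4 against 4.11 and 4.11 (log2 fold change 2.67 ± 0.22, limma adjusted p = 3.43e-07), Lif and Junb were higher too, and the STAT3 targets Pim1 and Pim3, kinases, and Bcl3 were lower. Pim1 was at 4.54 and 4.97 in D12 and 69.5 and 75.3 in riPSC (log2 fold change -3.67 ± 0.21, limma adjusted p = 9.01e-09). Stat3 and Socs3 were not called, at 41.6 and 41.1 against 26.8 and 29.1 and 91.2 and 96.4 against 69.3 and 81.2. Among 15 genes of FGF receptors and ERK feedback, 9 were lower and 2 higher, with a median of -1.49, and 10 had fallen since D10 with none risen. A pseudocount of 5 left 5 lower and a median of -0.51. The ETS factors Etv4 and Etv5, commonly read as outputs of ERK, were at 0.0207 and 0.0491 and 0.228 and 0.243 in D12. In riPSC, which grew with the MEK inhibitor PD0325901, they were at 42.6 and 42.6 and 67.3 and 68.8. ERK activity itself was not measured. On D10 Etv5 had been at 4.24 and 4.55, and its fall to D12 was called (log2 fold change -2.13 ± 0.22, limma adjusted p = 1.09e-05). The feedback inhibitors Dusp6, Spred1 and Spry4 fell in the same interval, Dusp6 from 5.58 and 5.98 to 0.443 and 0.717 and Egr1, an immediate output of ERK, from 18.1 and 18.4 to 0.558 and 0.521. The receptors differed in type: Fgfr2, at 24.5 and 23 against 0.505 and 0.575, and Fgfr4 were higher, and Fgfr1, at 4.29 and 3.53 against 15.9 and 18.1, was lower.

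Of 16 genes of the Nodal pathway 7 were lower and 2 higher, and 4 and 0 with a pseudocount of 5. The ligand gene Nodal was at 0.286 and 0.251 against 21.4 and 22.3 (log2 fold change -4.17 ± 0.10, limma adjusted p = 2.45e-12), its nuclear partner Foxh1 at 0.648 and 0.345 against 22.4 and 24.3, and the antagonist gene Lefty2 was listed at 0 in both D12 libraries against 11.6 and 14.1. BMP genes leaned the other way, with 8 of 17 higher and 2 lower. Among the higher were Id2, a dominant-negative partner of bHLH factors, at 10.12 and 6.55 against 1.26 and 0.874, and the mediator Smad1. Smad1 was at 24.7 and 26.1 against 7.17 and 7.34. The call of Smad1 was lost when any 1 of the 4 libraries was left out, and with a pseudocount of 0.1. Its log2 difference stayed from 1.64 to 1.71 without any 1 library, where the spread comes from all groups. With only the 4 libraries fitted the call held. With a pseudocount of 5 the count of higher BMP genes was 3. Of 17 Wnt targets 4 were higher and 4 lower, 23.5% each next to the 16.7% and 19.8% of all genes, and 7 were higher with a pseudocount of 0.1. From D10 to D12, 9 of these 17 fell and 2 rose. The feedback gene Axin2 fell from 26.6 and 27.96 to 7.301 and 6.86, which left it without a call against riPSC at 5.51 and 5.73, and the secreted inhibitor gene Notum fell from 34.4 and 37.7 to 2.02 and 2.17. Dkk1, another secreted inhibitor, rose from 7.504 and 7.78 to 18.5 and 18.6 against 0.115 and 0.0824 in riPSC. Among formative and primed factors 5 of 12 were lower, 2 with a pseudocount of 5, and 1 was higher. Dnmt3b, a de novo methyltransferase gene, was at 3.77 and 3.53 against 10.5 and 11.6 (log2 fold change -1.37 ± 0.10, limma adjusted p = 9.34e-08). The 1 higher member was Krt18, a keratin gene of simple epithelia.

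The genes with the largest excess in D12 had varied known roles. S100g, which encodes the calcium-binding protein calbindin-D9k, was at 1201 and 1181 in D12 and at 0 in both riPSC libraries, and it had fallen from 3677 and 3576 on D10 (log2 fold change -1.61 ± 0.09, limma adjusted p = 6.73e-08). Aqp8, a water channel gene, was at 503 and 494 against 0 and 0.0953. Cyp26a1, which encodes the enzyme that clears retinoic acid, was at 218 and 218 and at 0 in both riPSC libraries. The ranking was limited to protein-coding and long intergenic RNA genes. Of the 15 such genes with the largest log2 difference, 3 had risen since D10 and S100g and Clu had fallen. Zg16, a secretory granule lectin gene, was at 77.7 and 72.6 in D12, 0.748 and 0.609 in D10 and 0 in riPSC (against D10, log2 fold change 5.50 ± 0.09, limma adjusted p = 1.03e-12). Vnn1, a pantetheinase gene, went from 21.2 and 19.9 to 97.4 and 97.3 against 0.0373 and 0. Lamb1, a laminin chain gene, went from 290.3 and 298 to 665 and 658 against 7.54 and 8.28. Clu, an extracellular chaperone gene, was still at 214 and 205 against 1.31 and 1.48 after 565 and 576 on D10. The other genes of the 15 were Srgn, Pth1r, Adh1, Hs3st1, Krt8, Col4a1, Col4a2 and Sox17.

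Extraembryonic endoderm regulators were expressed in D12 and near 0 in riPSC. Of 14 tested, 12 were higher and 2 lower, with a median log2 difference of 4.72. Gata4, a zinc finger factor of primitive endoderm, was at 122 and 119 against 0.999 and 1.16 (log2 fold change 5.87 ± 0.12, limma adjusted p = 1.06e-12), and its relative Gata6 at 86.7 and 85.5 against 0.626 and 0.503. Sox17 was at 92.2 and 121 against 0.285 and 0.608 (log2 fold change 6.21 ± 0.23, limma adjusted p = 1.82e-10), with D10 at 136 and 112 and no call between the days. Foxq1, a forkhead factor, rose from 17.6 and 19.3 to 56.7 and 57.8, and Cited1, a transcriptional co-activator, fell from 267 and 273 to 69.9 and 71.97. The 2 lower genes were Gsc and Hhex, both factors of anterior endoderm and organizer; Gsc was listed at 0 in D12 against 5.92 and 6.61. Of 15 genes of parietal endoderm and basement membrane, 12 were higher and none lower, with a median of 3.23. The type IV collagen gene Col4a1 was at 1043 and 1071 against 5.13 and 5.29 (log2 fold change 7.41 ± 0.17, limma adjusted p = 2.58e-12) and Sparc, a collagen-binding glycoprotein gene, at 2651 and 2635 against 184 and 198. Sparc, Lamb1 and Lamc1 had each risen since D10, and the 3 without a call against riPSC were Fst, Nid1 and Nid2. Carriers of visceral endoderm were fewer. Of 15 tested, 6 were higher and 2 lower, among them Apoa1 at 11.2 and 15.2 and Apoa4 at 19.3 and 18.6, up from 1.54 and 1.67 and 3.12 and 3.603 on D10, while Afp, Alb and Apob did not pass the filter on low values. Apoe, an apolipoprotein gene that pluripotent cells also express, was lower at 149 and 156 against 497 and 559.

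Retinoid genes that were higher in D12 included enzymes of breakdown and synthesis. Of 17 tested, 9 were higher and 3 lower, 5 with a pseudocount of 0.1. Beside Cyp26a1, the breakdown enzyme Cyp26b1 was at 14.9 and 14.2 and 0 in riPSC, the synthesis enzyme Aldh1a1 at 42.96 and 43.7 against 0, up from 5.54 and 5.15, and the retinol transporter Stra6 at 35.03 and 33.8 against 0.256 and 0.322. The receptor gene Rarb, itself a target of retinoic acid, rose from 1.89 and 1.49 to 6.06 and 7.21 against 0.133 and 0.0562. The receptor genes Rara and Rarg were lower, Rarg at 1.93 and 2.45 against 13.1 and 14.3 (log2 fold change -2.20 ± 0.20, limma adjusted p = 7.96e-07).

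Genes of the 2-cell-like state, a rare condition of embryonic stem cell cultures that resembles the embryo at genome activation, were higher in D12 than in riPSC and near 0 on D10. Of 30 listed, 27 were in the annotation and 15 passed the filter; 13 of these were higher, 1 was lower and all 15 had risen since D10. Zscan4c was at 6.199 and 6.27 in D12, 0.878 and 1.12 in riPSC (log2 fold change 1.86 ± 0.09, limma adjusted p = 3.45e-09), 0.222 and 0.407 in mESC and 0 in both D10 libraries. Zscan4f was at 12.3 and 11.7 against 1.33 and 1.86 and Gm4340, of the same program, at 20.7 and 20.4 against 2.96 and 2.86. Since 2 libraries suffice for the filter, D12 alone could carry a gene past it, and these counts are a description. Levels were low: 5 of the 15 were called higher with a filter of 5 FPKM and 3 with a pseudocount of 5. Zscan4 copies are nearly identical, so their single values are uncertain. The lower member was Pramef12, at 4.92 and 4.698 against 12.06 and 12.6.

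Germline genes that DNA methylation keeps silent in somatic cells were mostly below riPSC. Of 27 listed, 19 were tested, 14 lower and 2 higher, with a median of -1.91, and 6 had risen since D10. The riPSC libraries alone could carry a gene past the filter, so the counts are a description. A pseudocount of 5 left 9 lower. Hormad1 and Sycp3, both components of the meiotic chromosome axis, were at 0.314 and 0.1501 against 20.8 and 21.7 (log2 fold change -4.18 ± 0.10, limma adjusted p = 2.77e-12) and 3.15 and 2.42 against 10.6 and 10.4 (log2 fold change -1.61 ± 0.11, limma adjusted p = 4.85e-08). Dazl, a germ cell RNA-binding protein gene, was the exception with Asz1: it went from 1.38 and 1.003 on D10 to 19.05 and 14.6, above the 5.896 and 5.605 of riPSC (log2 fold change 1.39 ± 0.13, limma adjusted p = 8.76e-07). Promoters of this list often hold the E-box, the letters CACGTG, which reads the same on both strands and is bound by factors of the MYC and MAX family. RefSeq promoters (GRCm38.p6) were searched in windows of 300 bases around the annotated start, and a gene counted if any of its promoters matched. The E-box was found in 12 of the 25 matched genes of the list, tested or not (48.0%). It was in 1307 of 11267 genes tested here (11.6%) and 2187 of all 27025 genes with a promoter (8.09%). A match is a description of the letters only. The 200 bases before the start are printed for Hormad1 (chr3:95559477-95559676, plus strand) and Sycp3 (chr10:88459387-88459586, plus strand), because both hold a pair of E-boxes, in capitals.
Hormad1: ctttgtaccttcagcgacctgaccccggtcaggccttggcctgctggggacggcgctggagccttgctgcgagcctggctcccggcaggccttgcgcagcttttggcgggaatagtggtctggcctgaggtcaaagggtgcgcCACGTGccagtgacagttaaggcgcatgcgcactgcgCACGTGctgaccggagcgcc
Sycp3: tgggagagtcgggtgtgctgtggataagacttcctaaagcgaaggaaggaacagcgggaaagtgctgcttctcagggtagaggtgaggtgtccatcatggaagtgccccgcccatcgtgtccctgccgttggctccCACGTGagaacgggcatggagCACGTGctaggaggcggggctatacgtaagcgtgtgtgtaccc

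Enzymes of DNA methylation that were lower included the maintenance step. Of 18 tested, 8 were lower, 5 with a pseudocount of 5, and 1 was higher. Uhrf1, which brings the maintenance methyltransferase to replicated DNA, was at 19.7 and 20.6 against 197 and 216 (log2 fold change -3.29 ± 0.15, limma adjusted p = 1.56e-09), while Dnmt1, the maintenance methyltransferase gene, was at 15.8 and 16.1 against 64.98 and 70.3 (log2 fold change -2.02 ± 0.21, limma adjusted p = 3.24e-06). Zfp57, which protects methylation at imprints, was at 7.499 and 7.46 against 149 and 166 (log2 fold change -4.22 ± 0.14, limma adjusted p = 6.88e-11). The demethylase gene Tet1 was lower, at 1.81 and 1.54 against 14.8 and 16.8, while Tet2 rose from 4.85 and 4.44 to 18.7 and 16.5 and was not called against 8.29 and 9.104 as deposited, but was called higher with median-of-ratios scaling, with quantile normalization, with mitochondrial transcripts left out and without D12 replicate 2. Dnmt3l, a germ cell cofactor of de novo methylation, rose from 2.54 and 2.12 to 26.2 and 25.6, next to 19.11 and 22.2 in riPSC and 71.5 and 75.6 in mESC. The higher members numbered 4 with median-of-ratios scaling and 5 with mitochondrial transcripts left out. Of 27 Polycomb genes 10 were lower and 4 higher. The largest differences were in Phc1, at 4.09 and 4.11 against 82.2 and 96.3, and Cbx7, at 5.57 and 6.62 against 79.4 and 87.5, both subunits of Polycomb repressive complexes. The methyltransferase gene Ezh2 was at 12.09 and 11.4 against 65.5 and 70.05 (log2 fold change -2.43 ± 0.14, limma adjusted p = 1.24e-08), and Ring1 was among those higher. The higher members numbered 2 without riPSC replicate 1, Ring1 not among them, and 1 with a pseudocount of 5. For H3K9 methylation, 6 of 16 were lower, with the demethylase genes Kdm4c, at 4.42 and 4.59 against 18.8 and 18.5, and Kdm3a among them, and the methyltransferase gene Suv39h1 was the 1 higher, at 17.5 and 15.01 against 5.87 and 6.83.

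Imprinted genes moved in both directions, 10 of 31 higher and 7 lower. The non-coding RNA gene H19 and the growth factor gene Igf2, neighbours of one imprinted domain, were at 546 and 566 and 83.3 and 90.5 in D12 against 7.38 and 7.17 and 0.558 and 0.689 in riPSC, and both had fallen from D10, H19 from 1278 and 1309. Cdkn1c, a cell cycle inhibitor gene, rose from 9.45 and 9.25 to 35.5 and 41.0 against 0.493 and 0.707 (log2 fold change 4.62 ± 0.13, limma adjusted p = 1.66e-11). Snrpn, at 9.66 and 11.9 against 81.1 and 91.9, and the amino acid transporter gene Slc38a4, at 3.63 and 3.08 against 82.1 and 84.5, were lower. Meg3, the maternally expressed RNA of the Dlk1 domain, was at 212 and 219 and 155 and 162 and was not called. Xist, the RNA that silences an X chromosome in female cells, was at 65.7 and 61.9 in D12, 0.1002 and 0.119 in riPSC and 4.299 and 4.05 in D10 (log2 fold change 5.87 ± 0.11, limma adjusted p = 4.35e-13 against riPSC, log2 fold change 3.65 ± 0.11, limma adjusted p = 2.81e-10 against D10). Its activator Jpx and neighbour Ftx were higher as well, 3 of 10 genes of X inactivation and dosage, with none lower. The call of Jpx was lost with quantile normalization, at 0.95, and with a pseudocount of 5, at 0.32. The Y-linked gene Eif2s3y was detected in both groups, at 17.6 and 17.8 and 20.1 and 22.2, and of 4 Y-linked genes Kdm5d was the 1 called.

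A group of neighbouring models on chromosome 11 was higher in D12 and mostly near 0 on D10 and in riPSC. The window, which runs from Med7 to Timd4 in mm10, was chosen after its values were seen. It holds 15 models, of which 10 were tested, 9 were higher than in riPSC and 7 had risen since D10. D12 alone could carry a model past the filter on low values, so these counts are a description. Dppa1 (chr11:46607772-46629261) was at 74.97 and 63.02 in D12, 0.0219 and 0 in riPSC and 0.338 and 0.0914 in D10. Havcr1 (chr11:46735080-46779578), which encodes a phosphatidylserine receptor known from injured kidney epithelium, was at 70.4 and 66.1 against 0.0234 and 0 and 0.7503 and 0.499. BC053393 was at 79.9 and 72.4 against 0.0656 and 0.0749, and Timd2, a relative of Havcr1, at 24.1 and 22.3 against 0.0345 and 0. The relatives Timd4 and Havcr2 in the same window were at 0 in both D12 libraries. Med7, a Mediator subunit gene at the edge of the window, was at 45.7 and 36.4 against 16.8 and 18.4, and like the pseudogene Gm12174 it was expressed in every library of the series. Over 158 aligned columns the RefSeq promoters of Dppa1 and Havcr1 are 76.6% identical. All 32851 promoters were searched in the same orientation only, so matches on the opposite strand were not sought. With the Dppa1 promoter this gave 1 further match of at least 100 columns, BC053393, at 71.9% over 167 columns and at another offset. The Havcr1 promoter matched only that of Dppa1, and no match was listed for Timd2. The 200 bases before each start are printed with the part that aligns in capitals, for Dppa1 (chr11:46629275-46629474, minus strand) and Havcr1 (chr11:46740023-46740222, plus strand) in GRCm38.p6, since both genes rose from D10 to D12. RefSeq gives 3 starts for Havcr1, and the first, used here, lies inside the model given above.
Dppa1: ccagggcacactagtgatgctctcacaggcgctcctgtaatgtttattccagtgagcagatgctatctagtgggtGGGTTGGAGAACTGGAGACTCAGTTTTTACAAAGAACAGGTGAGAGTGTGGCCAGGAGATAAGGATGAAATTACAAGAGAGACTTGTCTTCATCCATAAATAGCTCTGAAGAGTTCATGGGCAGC
Havcr1: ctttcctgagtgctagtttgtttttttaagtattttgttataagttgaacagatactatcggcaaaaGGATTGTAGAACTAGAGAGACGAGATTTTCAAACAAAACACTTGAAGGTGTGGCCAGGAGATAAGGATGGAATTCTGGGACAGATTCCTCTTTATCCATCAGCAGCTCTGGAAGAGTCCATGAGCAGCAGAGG

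**Figure D3:**
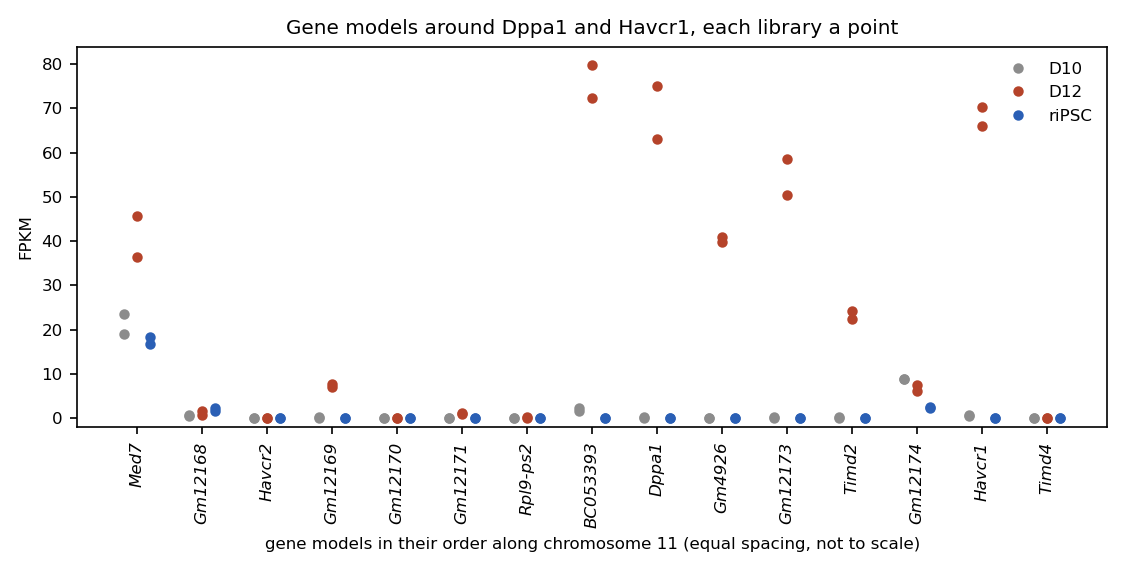
FPKM of the 15 gene models of the chromosome 11 window, in their order along the chromosome, with each library of D10 (grey), D12 (red) and riPSC (blue) as a point. The D12 points of BC053393, Dppa1, Gm4926, Gm12173, Timd2 and Havcr1 stand above 20 FPKM where D10 and riPSC are near 0, while Havcr2 and Timd4 are at 0 in D12.

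Genes of other surfaces and lineages were present in D12 as well. From a list of intestinal and late surface genes, 9 of 13 tested were higher and 3 lower. Another 5 did not pass the filter, which D12 alone could carry a gene past, and late-rising genes were known when the list was made, so the counts are a description. The trefoil factor gene Tff3 went from 1.27 and 0.663 to 13.6 and 11.2 and the fatty acid binding protein gene Fabp2 from 0.311 and 0.6797 to 6.99 and 8.27, both at 0 in riPSC. Cdx2, a factor of trophectoderm and gut, was at 20.2 and 23.3 and at 0 in riPSC, and its relative Cdx1 was the reverse, at 0.0346 and 0 against 14.1 and 15.2. Of 13 trophoblast regulators 8 were higher, 2 with a pseudocount of 5, and 2 were lower; Gata3 rose from 0.819 and 1.03 to 12.4 and 11.2 against 0 and 0.0896, while Tfap2c was lower, at 2.59 and 2.25 against 30.8 and 32.6, and Hand1 did not pass the filter. Among endothelial markers 4 of 8 were higher, led by the VEGF receptor gene Flt1 at 29.5 and 27.4 against 0.3795 and 0.363, and Pecam1, which naive stem cells also express, was lower at 0.0431 and 0.157 against 45.1 and 46.9. Of 13 neural markers 7 were tested, 4 lower and 2 higher. Stmn2 was at 1.09 and 1.29 against 103 and 108, among the 15 largest deficits of protein-coding and long intergenic RNA genes. Gfap, among the higher members, was at 2.18 and 2.298 against 0.0747 and 0.

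Epithelial genes included keratins that were higher in D12, while E-cadherin differed by less than 2-fold. Of 28 tested, 15 were higher and none lower. Cdh1, the E-cadherin gene, was at 126 and 127 and 73.2 and 78.2 (log2 fold change 0.74 ± 0.10, limma adjusted p = 2.56e-05), under the fold threshold except with quantile normalization, at 1.08. Epcam was at 109 and 114 against 26.7 and 26.3 (log2 fold change 2.03 ± 0.11, limma adjusted p = 6.52e-09). The keratin genes Krt8 and Krt19 were at 279 and 289.6 and 117 and 118 against 2.59 and 2.804 and 2.71 and 2.97. Fibroblast matrix and surface genes were higher in 19 of 29 and lower in 6, with a median of 1.75. Col1a1 was at 207 and 215 against 33.8 and 36.5 (log2 fold change 2.55 ± 0.22, limma adjusted p = 5.07e-07) and had risen from 94.8 and 99.6, Col3a1 was at 248 and 255 against 7.14 and 7.596, up from 74.96 and 77.6, and the inhibitor gene Timp3 at 129 and 128 against 2.42 and 2.503. Thy1, a fibroblast surface gene, was at 6.77 and 7.02 against 2.36 and 2.602 (log2 fold change 1.18 ± 0.15, limma adjusted p = 1.9e-05), but it had fallen from 19.8 and 22.1. The lower members were Fn1, Vim, Lox, Acta2, Tagln and S100a4, the fibronectin gene Fn1 at 68.99 and 64.3 against 186 and 201 (log2 fold change -1.52 ± 0.21, limma adjusted p = 3.67e-05). Without D12 replicate 1, or without riPSC replicate 1, 3 were lower, and with a pseudocount of 5, 2. The calls of Acta2 and Tagln were lost without any 1 of the 4 libraries, but held with only these 4 fitted. Without any 1 library their log2 differences ran from -1.59 to -1.34 and from -1.72 to -1.65. Acta2 also lost its call with median-of-ratios scaling, with mitochondrial transcripts left out and with the length trend removed. Of 17 mesenchymal transcription factors 7 were higher, 3 with a pseudocount of 5, and none lower, with Runx1 at 46.1 and 40.6 against 0.233 and 0.296, Snai1, a repressor of E-cadherin, at 31.7 and 32.1 against 1.08 and 1.34 and Twist1 at 9.11 and 9.804 against 1.22 and 1.66 (log2 fold change 2.104 ± 0.28, limma adjusted p = 3.09e-05). Of 26 Hox genes 4 were higher and none lower, a share of 15.4% next to the 16.7% of all genes, and 2 without D12 replicate 2; Hoxc4 was at 6.596 and 5.47 against 0.874 and 1.04.

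**Figure D4:**
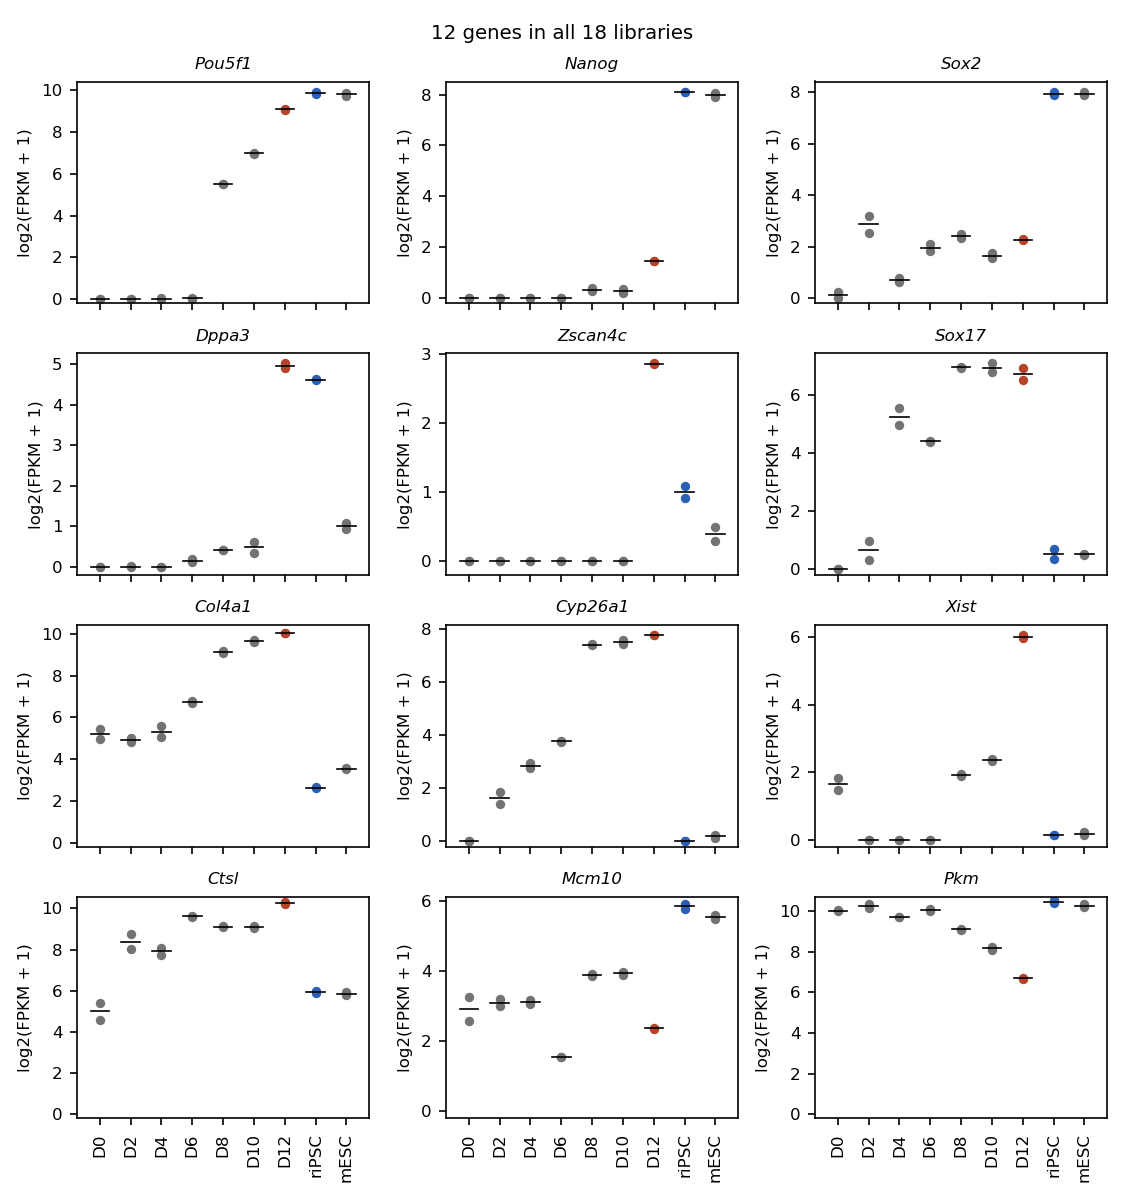
FPKM on the log2(FPKM + 1) scale of 12 genes in all 18 libraries, each library a point and the bar the mean of the 2; D12 is red and riPSC blue. Nanog and Sox2 stay low up to D12, Dppa3, Zscan4c and Xist rise from D10 to D12, and Mcm10 and Pkm are lower at D12 than at D10 and in riPSC.

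Cell division genes were lower in D12. Of 32 genes of DNA replication, 27 were lower and none higher (median -1.97), and of 28 genes of mitosis 26 were lower and none higher (median -2.27). From D10 to D12, 22 of the 28 mitosis genes fell. Mcm10, which helps to start replication, was at 4.12 and 4.21 against 53.7 and 58.7 (log2 fold change -3.47 ± 0.17, limma adjusted p = 2.55e-09), with D10 at 13.8 and 14.7. The fork helicase genes Mcm3, Mcm5 and Mcm6 were at 21.9 and 21.7, 27.6 and 25.4 and 26.4 and 26.1 against 143 and 152, 128 and 138 and 139 and 144. Cyclin E1, from Ccne1, which carries stem cells quickly into S phase, was at 5.85 and 7.06 against 58.5 and 65.5. The mitotic kinase gene Cdk1 was at 6.65 and 5.25 against 44.4 and 38.1 and 20.2 and 22.6 in D10 (log2 fold change -2.61 ± 0.19, limma adjusted p = 8.84e-08). The inhibitor gene Cdkn1a was not called, at 56.6 and 59.9 against 76.7 and 77.1 (log2 fold change -0.40 ± 0.24, limma adjusted p = 0.177), and of 10 genes of the inhibitor and pocket protein list Cdkn1c and Cdkn2b were higher and Rbl1 lower. Cdkn2b was at 14.6 and 16.9 against 2.23 and 2.68. Of 22 p53 genes 4 were higher and 4 lower, 18.2% each and close to the shares of all genes, and Trp53 itself was lower, at 24.97 and 28.05 against 125 and 136. Promoters of replication genes often hold the core of the E2F site, searched as TTTCGCG on both strands. It was in 7 of 26 matched genes (26.9%), in 212 of 11267 genes tested (1.88%) and in 262 of 27025 genes with a promoter (0.969%). The 200 bases before the start are printed for Mcm5 (chr8:75109309-75109508, plus strand), Mcm6 (chr1:128359706-128359905, minus strand) and Orc1 (chr4:108579254-108579453, plus strand) with the match in capitals, in Mcm6 and Orc1 on the opposite strand. Orc1, a subunit of the origin recognition complex, was at 4.55 and 3.73 against 27.6 and 28.1.
Mcm5: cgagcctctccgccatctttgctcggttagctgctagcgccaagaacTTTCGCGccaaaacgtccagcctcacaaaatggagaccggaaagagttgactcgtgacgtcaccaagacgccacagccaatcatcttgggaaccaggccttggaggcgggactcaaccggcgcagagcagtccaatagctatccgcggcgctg
Mcm6: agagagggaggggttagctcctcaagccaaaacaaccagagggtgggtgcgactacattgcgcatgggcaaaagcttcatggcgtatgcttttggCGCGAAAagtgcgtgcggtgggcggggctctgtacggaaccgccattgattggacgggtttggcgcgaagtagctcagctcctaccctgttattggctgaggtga
Orc1: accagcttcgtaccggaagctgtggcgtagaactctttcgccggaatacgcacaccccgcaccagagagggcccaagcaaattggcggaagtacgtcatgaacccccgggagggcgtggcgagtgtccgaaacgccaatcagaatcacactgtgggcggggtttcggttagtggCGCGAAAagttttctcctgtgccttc

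Biosynthetic genes were lower alongside. Of 31 nucleolar factors of ribosome biogenesis 25 were lower and none higher (median -1.39), with Dkc1, of the RNA pseudouridylation complex, at 15.03 and 13.7 against 119.8 and 119.8 (log2 fold change -2.98 ± 0.21, limma adjusted p = 6.54e-08), and Npm1, a nucleolar protein gene, at 347 and 313 against 1417 and 1420.1. For cytosolic ribosomal proteins the count depended on scaling: 16 of 42 were lower as deposited, 8 with median-of-ratios scaling, 7 with mitochondrial transcripts left out and 6 with quantile normalization, and none was higher. In the Myc network, Mycn was at 5.503 and 5.33 against 45.1 and 48.1 (log2 fold change -2.89 ± 0.20, limma adjusted p = 6.43e-08), while Mxd4, a MYC antagonist gene, rose from 9.52 and 10.6 to 23.2 and 23.01 against 0.542 and 0.589 (log2 fold change 3.94 ± 0.23, limma adjusted p = 1.35e-08). Myc was at 1.81 and 2.25 and 1.08 and 1.03 without a call (log2 fold change 0.56 ± 0.21, limma adjusted p = 0.0375), after a fall from 18.4 and 18.5 on D10.

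Of 23 glycolysis genes 17 were lower and none higher (median -2.18). Pkm, the pyruvate kinase gene, was at 101 and 103 against 1341 and 1465 (log2 fold change -3.77 ± 0.10, limma adjusted p = 9.41e-12) and had fallen from 274 and 299.7. The enolase gene Eno1 was at 129.9 and 128 against 1102 and 1189, the phosphofructokinase gene Pfkp at 5.88 and 6.29 against 106 and 107 and the lactate transporter gene Slc16a3 at 1.22 and 0.847 against 31.8 and 38.5. Of 18 genes of serine, glycine and folate metabolism 15 were lower and none higher (median -2.25). Tdh, the threonine dehydrogenase gene on which mouse embryonic stem cells are known to depend, was at 4.84 and 4.12 against 198 and 209 (log2 fold change -5.22 ± 0.10, limma adjusted p = 7.63e-13). Phgdh and Psat1, genes of serine synthesis, were at 10.8 and 11.5 and 9.53 and 10.9 against 143 and 161 and 178 and 193. Of 17 ATF4 targets and stress genes 6 were lower and 1 higher. Among the lower was the amino acid transporter gene Slc7a5, at 6.66 and 6.91 against 93.6 and 106. Of 28 genes of cholesterol and fatty acid synthesis 8 were lower and none higher, with Dhcr7 at 13.4 and 13.49 against 49.2 and 49.97. Of 22 genes of fatty acid oxidation 7 were higher, 4 with a pseudocount of 5, and 1 was lower. Among the higher were the dehydrogenase gene Acadl, at 28.8 and 25.99 against 6.25 and 6.02, and Hadh, at 192 and 200.2 against 65.2 and 70.4.

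The respiratory chain was split between its genomes. Of 46 nuclear genes for the chain and ATP synthase none was called in either direction with limma, and without the fold threshold 10 were higher and 12 lower; Atp5b was at 664 and 682 against 1025 and 1086. Of the 13 coding genes of mitochondrial DNA 10 were tested and 8 were higher, 4 with quantile normalization. Mitochondrial transcripts took 18.6% and 18.2% of length-weighted FPKM in D12 and 4.18% and 3.91% in riPSC, and 62.3% and 62.1% against 28.1% and 27.0% without that weight. Single mitochondrial genes are not reliable here: mt-Nd1 and mt-Atp6 were listed at 0 in all 18 libraries and mt-Nd4l took 85.0% and 85.2% of the mitochondrial FPKM in D12. For mitochondrial ribosomes and biogenesis 8 of 26 were lower, 5 with mitochondrial transcripts left out, and 1 was higher; Tfam, which packages mitochondrial DNA, was at 7.55 and 7.94 against 21.4 and 20.4.

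Lysosome and autophagy genes were higher in D12. Of 42 tested, 24 were higher and none lower, with a median of 1.37. The cathepsin gene Ctsl was at 1251 and 1208 against 59.1 and 61.9 (log2 fold change 4.32 ± 0.25, limma adjusted p = 1.33e-08) and had risen from 535 and 571. Psap, which encodes the precursor of the saposins, was at 765 and 779 against 120.2 and 129 (log2 fold change 2.62 ± 0.15, limma adjusted p = 1.01e-08), the membrane protein gene Lamp1 at 673 and 662 against 122 and 127 (log2 fold change 2.41 ± 0.22, limma adjusted p = 9.5e-07), the protease gene Ctsd at 535 and 529 against 111 and 121 and the calcium channel gene Mcoln1 at 54.1 and 54.1 against 16.3 and 16.04. Genes for their regulators of the TFEB family were not called: Tfeb was at 24.6 and 29.8 against 22.6 and 24.8, Tfe3 at 14.0 and 13.9 against 21.3 and 22.2 and Mitf at 4.29 and 3.96 against 6.61 and 6.34. Among 25 mTORC1 regulators 6 were higher, 3 with a pseudocount of 5, and 3 lower. Flcn and Fnip2, partners that act on mTORC1 at the lysosome, were at 32.4 and 31.6 and 26.7 and 25.1 against 9.97 and 10.7 and 4.56 and 4.84, with the call of Flcn lost at a pseudocount of 0.1. Ddit4 and Eif4ebp1 were lower, Eif4ebp1 at 21.1 and 21.8 against 191 and 205. The E-box was found in promoters of 13 of 32 matched lysosome genes (40.6%), next to the 11.6% of genes tested. Among all genes called higher in D12 it was in 11.1%, and among those called lower in 12.8%. With the preceding T of the lysosomal CLEAR element, as TCACGTG on either strand, the E-box was in 10 of the 32 lysosome genes (31.2%). That form was in 764 of 11267 genes tested (6.78%) and 4.29% of all genes with a promoter. The 200 bases before the start are printed for Lamp1 (chr8:13158961-13159160, plus strand), Mcoln1 (chr8:3500319-3500518, plus strand) and Ctsd (chr7:142387828-142388027, minus strand), with E-boxes in capitals, because these members hold from 1 to 4 of them in this window.
Lamp1: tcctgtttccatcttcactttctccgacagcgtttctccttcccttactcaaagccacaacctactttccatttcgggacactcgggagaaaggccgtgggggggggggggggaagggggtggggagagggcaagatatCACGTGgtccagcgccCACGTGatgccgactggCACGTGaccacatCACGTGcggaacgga
Mcoln1: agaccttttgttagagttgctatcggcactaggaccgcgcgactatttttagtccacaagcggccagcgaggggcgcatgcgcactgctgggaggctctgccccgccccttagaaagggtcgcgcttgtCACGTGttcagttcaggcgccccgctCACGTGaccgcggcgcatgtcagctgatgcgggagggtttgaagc
Ctsd: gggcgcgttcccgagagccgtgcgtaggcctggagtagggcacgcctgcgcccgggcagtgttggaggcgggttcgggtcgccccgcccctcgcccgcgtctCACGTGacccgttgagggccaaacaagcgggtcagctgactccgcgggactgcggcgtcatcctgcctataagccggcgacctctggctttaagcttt

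Immune and stress-response genes differed by family. Of 23 interferon-stimulated genes 10 were lower and 2 higher, 4 without D12 replicate 1, and 13 had fallen since D10. The antiviral membrane protein genes Ifitm3 and Bst2 were at 55.4 and 49.8 and 69.2 and 74.5 in D12, 359 and 371 and 271 and 279 in riPSC and 271 and 261 and 213 and 221 in D10. The list's median of -0.09 turned to 0.09 with median-of-ratios scaling. MHC class I genes leaned the other way, 6 of 15 higher, 3 with a pseudocount of 5, and 1 lower, with the light chain gene B2m at 294 and 285 against 39.5 and 41.5 (log2 fold change 2.81 ± 0.28, limma adjusted p = 2.22e-06), while the heavy chain gene H2-K1 was at 34.6 and 40.1 and 39.6 and 34.96. Of 16 AP-1 and immediate early genes 8 were higher and 3 lower. Jun was at 40.4 and 40.04 against 1.68 and 2.22 (log2 fold change 3.81 ± 0.21, limma adjusted p = 8.45e-09), Fos at 23.7 and 24.02 against 1.36 and 1.35 and Fosb at 9.05 and 9.96 against 0.0114 and 0.0133, the last down from 34.5 and 39.8. TGF-beta genes were higher in 4 of 15 and lower in 3, with the receptor gene Tgfbr2 at 32.7 and 32.99 against 0.308 and 0.387. Of 17 chemokine and adhesion genes 5 were higher and 2 lower. Cxcl12 was among the higher, at 13.3 and 12.7 against 0.3402 and 0.228, and Icam1 among the lower, at 9.35 and 7.79 against 34.9 and 39.3. The call of Icam1 was lost with a pseudocount of 0.1, and 1 member was higher with a pseudocount of 5.

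**Figure D5:**
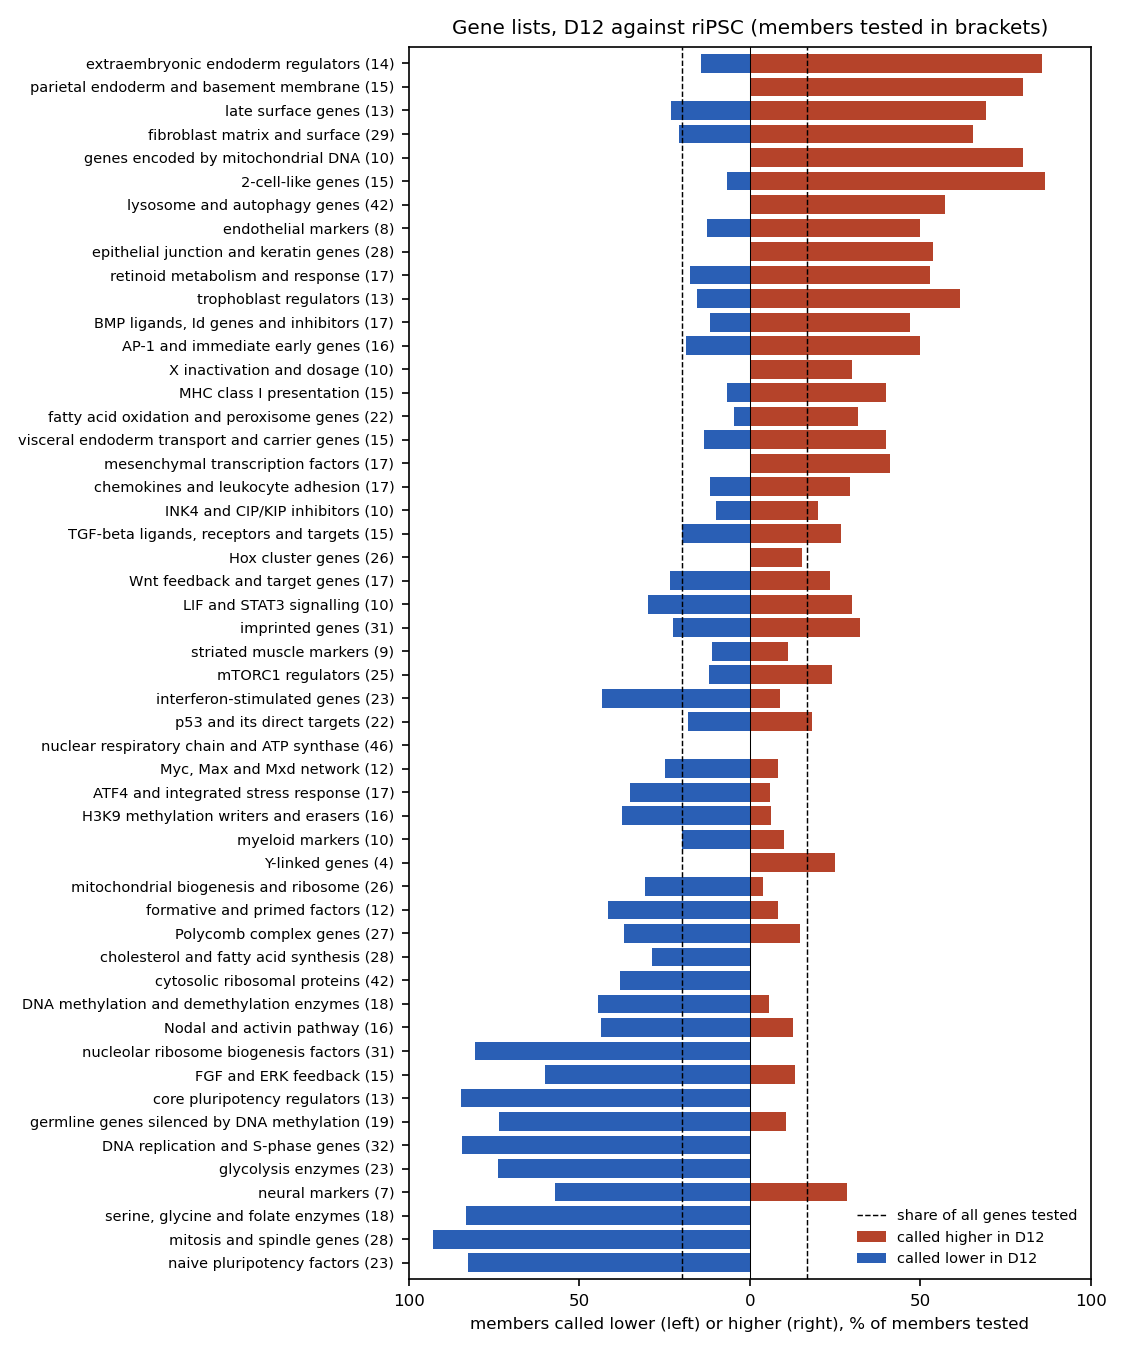
Share of the members tested of each of 52 gene lists called higher (right, red) or lower (left, blue) in D12, ordered by the median log2 difference from riPSC; dashed lines mark the 16.7% and 19.8% of all genes tested. Endoderm and basement membrane lists stand at the top with 12 of 14 and 12 of 15 members higher. Naive pluripotency, mitosis, serine metabolism, glycolysis and replication lists stand at the bottom with none higher, and neural markers lie among them with 2 of 7 higher.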

How the data were processed

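RNA was sequenced with reads of 150 bp. Per the submitters' processing notes, fastp 0.20.1, HISAT2 2.2.1 and StringTie 2.0 were used with the mm10 build; the annotation release and strand setting are not given in the sources used here. The authors deposited FPKM per gene and library, and no read counts were used. Gene models were matched to GENCODE M21, and promoters to RefSeq GRCm38.p6; where 2 models share a symbol the longer was used.

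Values were analysed as log2(FPKM + 1) for genes with at least 1 FPKM in at least 2 of 18 libraries. limma 3.58.1 (R 4.3.3) fitted 1 mean for each of 9 groups, with 9 residual degrees of freedom, and p-values were adjusted by Benjamini-Hochberg over all 16439 genes. Genes were called at an adjusted p under 0.05 with at least a 2-fold difference. Genes named were the 15 largest called differences in each direction among protein-coding and long intergenic RNA genes. For these, the mean of the higher group had to reach 10 FPKM. Also named were up to 8 called members of each of 52 gene lists per direction, by size. Members without a call and a fixed set of 20 were added. Mcm5, Mcoln1, Nr5a2, Sycp3 and Tfcp2l1 fall outside this rule and were chosen after their values were seen. The comparison and the lists were chosen with earlier results of these data known, and the chromosome 11 window and the repeat-sharing models after their values were seen. Some genes are not reported here. Depth was estimated from the smallest step of FPKM times length in single-exon genes. Promoters were aligned with blastn 2.17.0. Alternatives covered pseudocount, filter, scaling, the libraries fitted, a replicate block and leaving out single libraries.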

Additional observations from a re-analysis of the deposited data

How the results depend on the processing

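With a pseudocount of 5, 3062 genes were called against riPSC (1371 higher, 1691 lower), 607 against D10 (410 and 197) and 3017 against mESC (1404 and 1613). Without a fold threshold the counts were 10585 (4795 and 5790), 5822 (2720 and 3102) and 10602 (4995 and 5607). With a pseudocount of 0.1, 2721 genes were called against D10, 1364 of them lower. Leaving out 1 library at a time gave 5914 to 5997 calls against riPSC (2665 to 2794 higher, 3120 to 3326 lower), 1672 to 1761 against D10 (931 to 1001 and 706 to 781) and 5781 to 5940 against mESC (2721 to 2985 and 2796 to 3219); the lone library left in a group is assumed to vary like the other groups. The other alternatives kept each of these counts within 1.5 times. The cause of these differences was not tested, except that a larger pseudocount shrinks low genes by construction.

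The replicate numbers pair nothing that the labels name, and deviations of same-numbered libraries of D12 and riPSC correlated at 0.0085. With a replicate block, 2749 genes were higher and 3253 lower than in riPSC. The block moved no count of calls by over 1.5 times. With a pseudocount of 5, Hox genes called higher went from 4 to 0, and calls named in the report that were lost include Asz1, Dnmt3b, Dusp6, Gfap, Hhex, Hoxc4, Kdm5d, Lif, Lox, Pramef12, Rbl1, Spred1, Spry4, Suv39h1, Sycp3, Thy1 and Zscan4c. With a pseudocount of 0.1, 10 Hox genes were higher. The depth of the D12 libraries does not separate the lowest listed FPKM values from 0.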

Other observations

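Gene models annotated as other than protein-coding were searched for sequence shared with the models Gm37385 or Gm42687. Outside the lists, 43 shared it over at least 100 bases, these 2 included. Protein-coding models were not searched. Of the 43, 34 on 10 chromosomes were tested, with 90.2% to 100% identity, and all 34 were higher in D12 than in riPSC. D12 alone could carry a model past the filter on low values, and the others were left out. The models were sought after high values of Gm37385 and Gm42687 had been seen, so the count is a description. The median level of the 34 tested models was 49.0 and 46.4 FPKM in the D12 libraries, 12.6 and 12.6 in D10, 5.83 and 6.05 in D8, and 0 in both riPSC and both mESC libraries. Summed over the models, D12 stood at 1652 and 1625 FPKM and riPSC at 0.508 and 0.697. Reads from near-identical copies cannot be assigned to single models, and the source of the transcripts was not tested.

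Counts of non-coding classes are given next to the 16.7% higher and 19.8% lower of all genes tested. Of 116 models of the annotation class TEC, for which experimental evidence is pending, 43 were higher and 11 lower in D12, and without the repeat-sharing models 18 of 91 were higher (19.8%) and 11 lower. Of 353 long intergenic RNAs 55 were higher (15.6%) and 104 lower (29.5%), and of 980 processed pseudogenes 60 were higher (6.12%) and 277 lower (28.3%). Mitochondrial transfer RNAs were higher in 17 of 21. Igfbp2, an insulin-like growth factor binding protein gene, was at 6.41 and 6.62 FPKM in D12 and 486 and 533 in riPSC, among the largest deficits of D12.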
